A study of Mus musculus with 2 samples.

Results

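The 10 genes described here are imprinted growth genes of early life, H19, Dlk1, Meg3, Mest, Peg3, Plagl1, Grb10, Cdkn1c, Ndn and Gnas, chosen by gene symbol from the 37309 genes of the deposited table. Each symbol matched 1 row. Intestinal subepithelial myofibroblasts (ISEMFs), the contractile stromal cells that lie under the crypt epithelium, had been grown in culture from the small intestine of wild type C57BL/6 mice. Supportive ISEMFs came from 5-day-old neonates and non-supportive ISEMFs from 2-month-old adults, and 1 library of each was sequenced. The study compared them because crypts formed enteroids on the neonatal cells without added R-spondin and did so only weakly on the adult cells. They are called the neonatal and the adult library below. Age, support of enteroids and any other difference between these cultures cannot be told apart, and there was no replicate. The cells had been passaged, and the paper and labels do not state how often before sequencing. Letter and number codes that differ between the libraries in the name of the deposited table are unexplained, so a difference in passage cannot be told apart from age either.

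Imprinted genes are transcribed mainly from the copy inherited from 1 parent, and they lie in clusters whose control regions carry parental DNA methylation. Many of them act on fetal and early postnatal growth, and in many organs of the mouse their transcripts are abundant before and around birth and decline as the animal matures. Paternally expressed members of the group are Dlk1, Mest, Peg3, Plagl1 and Ndn. Maternally expressed members are H19, Meg3, Cdkn1c, in most tissues Grb10, and in some tissues Gnas, which most cells transcribe from both copies. The mice were inbred, so reads could not be assigned to a parental copy, and the values below are the total of both.

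Reads assigned to genes numbered 50674472 for the neonatal and 49615497 for the adult library. Mitochondrially encoded genes took 14.6% of them in the neonatal and 7.85% in the adult library. RPKM scales the reads of a gene by its exon length and by library size. The ratios below are of neonatal (supportive) over adult (non-supportive) RPKM, with a 95% Clopper-Pearson interval from the share of reads, which covers counting error only and compares these libraries, not the populations. A gene was called higher or lower when log2 of RPKM with a pseudocount of 0.1 differed by at least 1, which is 2-fold, among the 10086 genes that reached an RPKM of 1 in the neonatal or adult library. Of 6 myofibroblast genes, Pdgfrb was called higher, Des and Pdgfra lower and 3 neither. Over all 10086 genes, 9.01% were called higher and 9.27% lower. Acta2 and Vim were at RPKM values of 908 and 325 in the neonatal library and 1410 and 407 in the adult library.

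Mest had the largest difference of the group in the neonatal direction, and its start regions are shown for that reason. The RefSeq table holds start regions of 8 of the 10 genes, each of 300 bases, running from 250 bases before the start to 50 after it on build GRCm38.p6. The Mest windows lie at chr6:30733256-30733555 and chr6:30737800-30738099 on the plus strand, and capitals mark each CG dinucleotide, the dinucleotide on which DNA methylation lies in mammals, which reads the same on both strands. Another Mest window, which overlaps the downstream one, is not shown.

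Mest, upstream start: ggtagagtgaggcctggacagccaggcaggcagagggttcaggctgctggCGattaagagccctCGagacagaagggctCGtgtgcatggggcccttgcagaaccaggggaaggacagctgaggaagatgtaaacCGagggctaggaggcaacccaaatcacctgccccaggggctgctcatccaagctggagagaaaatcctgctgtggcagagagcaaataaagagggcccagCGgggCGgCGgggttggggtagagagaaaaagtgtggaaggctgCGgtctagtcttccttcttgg

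Mest, downstream start: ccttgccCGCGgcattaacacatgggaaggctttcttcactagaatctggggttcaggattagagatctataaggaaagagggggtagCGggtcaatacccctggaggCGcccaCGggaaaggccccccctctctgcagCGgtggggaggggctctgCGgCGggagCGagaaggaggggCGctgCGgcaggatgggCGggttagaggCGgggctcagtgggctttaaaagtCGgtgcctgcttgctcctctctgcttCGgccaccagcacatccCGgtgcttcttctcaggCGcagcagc

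The upstream Mest window holds 8 CG dinucleotides and the downstream window 17. Of the 32851 windows in the table, 48.7% hold at least 8 and 31.4% at least 17, and the median is 7. Counts per gene do not tell which start was used. Ndn, a single-exon gene, is shown beside it as a member that was lower in the neonatal library. Its window at chr7:62348027-62348326, on the plus strand, holds 11 CG dinucleotides, as many as or fewer than 41.4% of all windows.

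Ndn: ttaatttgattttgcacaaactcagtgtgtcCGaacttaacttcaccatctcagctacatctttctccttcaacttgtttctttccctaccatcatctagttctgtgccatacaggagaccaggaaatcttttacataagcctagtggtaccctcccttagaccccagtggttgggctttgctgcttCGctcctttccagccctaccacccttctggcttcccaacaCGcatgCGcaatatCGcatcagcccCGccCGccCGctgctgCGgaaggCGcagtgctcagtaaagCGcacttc

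Mest, H19 and Meg3 also carry microRNAs, and these are shown because the read counts of their hosts differed between the libraries beyond counting error. The miR-335 hairpin lies in an intron of Mest, the miR-675 hairpin in an exon of H19 and the miR-770 hairpin in an exon of Meg3. On GRCm38.p6 the mature arms lie at chr6:30741314-30741336 and chr6:30741354-30741375 on the plus strand for miR-335, and at chr7:142577112-142577133 and chr7:142577078-142577099 on the minus strand for miR-675. Those of miR-770 lie at chr12:109563710-109563731 and chr12:109563744-109563765 on the plus strand. RefSeq gives the sequences below, and capitals mark the seed, bases 2 to 8.

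mmu-miR-335-5p: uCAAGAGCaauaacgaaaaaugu

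mmu-miR-335-3p: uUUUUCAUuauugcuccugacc

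mmu-miR-675-5p: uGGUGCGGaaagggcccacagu

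mmu-miR-675-3p: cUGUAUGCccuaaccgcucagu

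mmu-miR-770-5p: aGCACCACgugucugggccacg

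mmu-miR-770-3p: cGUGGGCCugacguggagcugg

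The 6 seeds differ from each other. The row of the miR-335 hairpin held 1 read in the neonatal and 0 in the adult library, and those of miR-675 and miR-770 held 0 in both. The libraries were made from mRNA, so these rows say nothing about the mature microRNAs.

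The group did not move as a block. All 10 genes had reads in both libraries, and 6 reached an RPKM of 1 in the neonatal or the adult library. Of these 6, Mest was called higher in supportive ISEMFs, where 9.01% of all genes that reached that level were called higher. Cdkn1c, Ndn and Meg3 were called lower, where 9.27% of all genes were. Grb10 and Peg3 were called in neither direction. The log2 ratios of these 6 genes ran from -3.96 to 5.98, with a median of -0.46 against -0.07 over all 10086 genes. H19, Dlk1, Plagl1 and Gnas stayed under an RPKM of 1 in both libraries and were not called. These are bulk libraries, in which fewer cells of a type and less RNA per cell cannot be told apart, and the adult library held macrophage transcripts, at a summed RPKM of 123 over 8 markers against 6.86 in the neonatal library.

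**Figure D1:**
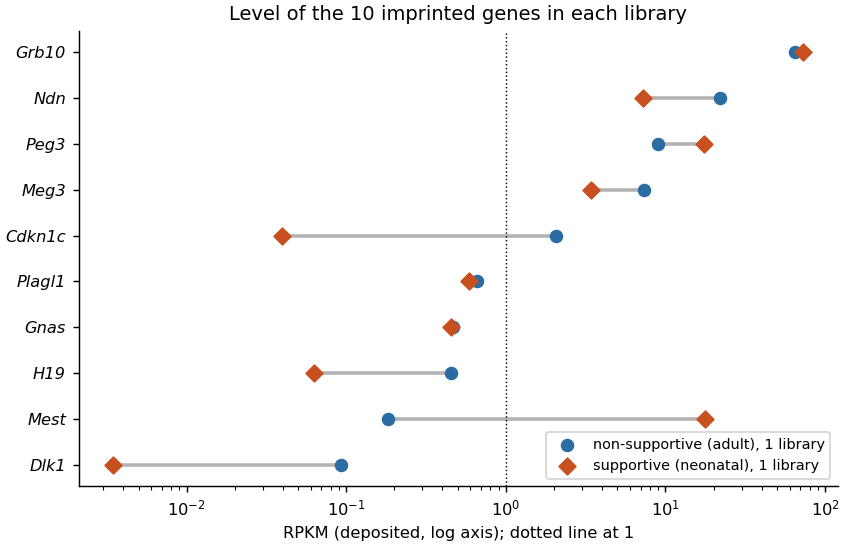
Deposited RPKM of the 10 imprinted genes on a log axis, with 1 point per library (diamonds, supportive; circles, non-supportive) and a grey line joining the points of a gene. Grb10 has the highest level in both libraries, Mest moves from 0.183 in the adult to 17.7 in the neonatal library, and Cdkn1c, H19 and Dlk1 lie to the left in the neonatal library.

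**Figure D2:**
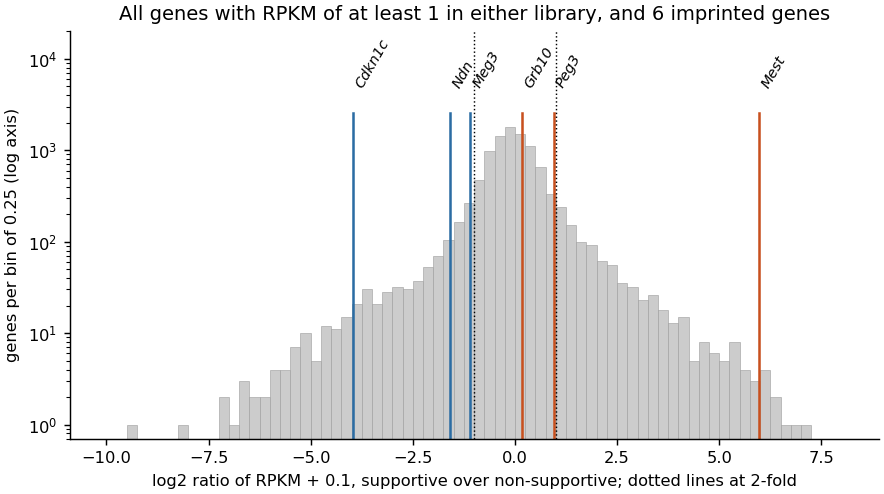
Histogram of the log2 ratio of RPKM + 0.1, supportive over non-supportive, over the 10086 genes that reached an RPKM of 1 in the neonatal or adult library, with the number of genes per bin on a log axis and the 6 imprinted genes of that level as vertical lines (orange, above 0; blue, below 0). Mest lies in the right tail at 5.98 and Cdkn1c in the left at -3.96, while Grb10 lies within the dotted 2-fold lines at 0.17.

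Mest encodes a protein of the α/β-hydrolase fold made in embryonic mesoderm. The gene (ENSMUSG00000051855) occupies bases 30673547 to 30698457 of mm9 chromosome 6 (plus strand), with its exons in 18 separate blocks. Neonatal cells gave 9305 reads, an RPKM of 17.7, and adult cells 93 reads, an RPKM of 0.183. That is a ratio of 97.2, with an interval of 79.3 to 121. Its log2 ratio was at rank 10 from the top of the 10086 genes. In the neonatal cells Mest was the 1404th gene by RPKM, and in the adult cells the 13446th.

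Peg3, a large zinc finger protein that binds DNA, was the other paternally expressed gene with more reads in the neonatal cells. It occupies bases 6656603 to 6683132 of chromosome 7 (minus strand, ENSMUSG00000002265). The neonatal library held 23371 reads, at an RPKM of 17.4, and the adult library 11700 reads, at 8.96. The ratio of 1.94 (interval, 1.90 to 1.98) was just short of the 2-fold call and at rank 973 from the top of the 10086 genes. With TMM scaling its log2 ratio was 1.01, past the call.

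Plagl1, a zinc finger transcription factor that acts on other imprinted genes, had 597 reads in the neonatal and 649 in the adult library, at RPKM values of 0.591 and 0.662. It lies on chromosome 10 from 12810497 to 12851500 (ENSMUSG00000019817). The ratio of 0.894 had an interval that started at 0.799 and reached 1, so a difference was not detectable from these reads.

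Cdkn1c encodes an inhibitor of cyclin-dependent kinases that stops the cell cycle. It occupies bases 150644255 to 150646955 of chromosome 7 (minus strand, ENSMUSG00000037664). Neonatal cells gave 8 reads, at an RPKM of 0.0398, against 405 reads, at 2.07, in adult cells. It was 52.1-fold lower in the neonatal cells, with an interval of 26.2 to 121 that is wide because of the 8 reads. Of the 10086 genes, 81 had a lower log2 ratio.

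Ndn encodes necdin, a MAGE family protein that restrains growth of neurons and other cells. It lies on chromosome 7 from 69493163 to 69494814 (ENSMUSG00000033585) and is a single exon. The neonatal library held 853 reads, at an RPKM of 7.23, and the adult library 2525 reads, at 22.0. Ndn was thus 3.05-fold lower in the neonatal cells (interval, 2.82 to 3.30).

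Dlk1 encodes a membrane protein with EGF repeats, related to Notch ligands, that holds progenitor cells such as preadipocytes undifferentiated. It occupies bases 110691033 to 110701546 of chromosome 12 (plus strand, ENSMUSG00000040856). Reads were few in both libraries, 4 in the neonatal and 104 in the adult, at RPKM values of 0.00347 and 0.0928. The 26.8-fold lower value in the neonatal cells had an interval that started at 10.1 and was wide because of the 4 reads, and its log2 ratio with the pseudocount, -0.90, understates it because both levels are near or below the pseudocount.

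The noncoding RNAs of the group were both lower in the neonatal cells. H19, on chromosome 7 from 149761434 to 149764048 (ENSMUSG00000000031), gave 22 reads (RPKM 0.0631) in neonatal and 153 reads (RPKM 0.452) in adult cells. It was 7.16-fold lower (interval, 4.56 to 11.8), at levels under an RPKM of 1. Meg3, on chromosome 12 from 110779211 to 110809936 (ENSMUSG00000021268), had many more reads, with 5740 reads and an RPKM of 3.40 against 12052 reads and 7.36. It was 2.16-fold lower (interval, 2.09 to 2.23), and it missed the call with mitochondrial genes left out of the totals, at a log2 ratio of -0.97, and with a pseudocount of 1, at -0.92.

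The signaling members barely differed. Grb10, an adaptor that binds the insulin and IGF receptors and dampens their signal, had the highest level of the group in both libraries. It lies on chromosome 11 from 11830511 to 11938686 (ENSMUSG00000020176), and gave 55317 reads (RPKM 72.9) in neonatal and 47692 reads (RPKM 64.6) in adult cells. The ratio was 1.13 (interval, 1.11 to 1.14), and Grb10 was the 228th and the 335th gene by RPKM. Gnas encodes the stimulatory G protein α-subunit, which couples receptors to adenylyl cyclase. RefSeq gives the gene several start regions, and counts per gene do not tell which was used. Gnas had 584 and 582 reads, at RPKM values of 0.455 and 0.466. Its ratio of 0.975 had an interval of 0.868 to 1.10. Gnas spans chromosome 2 from 174109821 to 174172245 (ENSMUSG00000027523), and opposite-strand genes overlap its exons. In the GENCODE vM1 annotation, 8.83% of its exon bases are shared with Nespas and 13.1% with AF085738. The authors left out reads that did not fall on 1 gene alone, so its level is uncertain.

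Neither parental class moved one way. Of the 5 paternally expressed genes, Mest and Peg3 had ratios above 1 and Ndn, Dlk1 and Plagl1 below 1. Of the 5 maternally expressed genes, Grb10 was above 1 and the other 4 below, of which Gnas, within counting error of 1, turned to a log2 ratio of 0.02 with TMM scaling in edgeR. Summed over the 10 genes, RPKM was 120 in the neonatal and 107 in the adult library, and most of both sums was Grb10.

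With 1 library per population the variation between cultures is unknown, so it was also set by assumption in edgeR's exact test, at an adjusted threshold of 0.05 over the 21596 genes with a read. At an assumed coefficient of variation of 0.2, Mest was higher, where 7.1% of all genes were, and Cdkn1c, Dlk1, H19 and Ndn were lower, where 7.49% of all genes were. At 0.4, Mest was higher, against 2.03% of all genes, and Cdkn1c and Dlk1 were lower, against 2.96%. Raising the call to 4-fold in RPKM left Mest higher, where 3.24% of all genes were, and Cdkn1c lower, where 3.29% were. Mest and Cdkn1c were the members called at 2-fold, at 4-fold and at both assumed variations.

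The genes that share a cluster with the 10 were then examined, from a list of 33 that includes some genes not known to be imprinted. Of these, 28 were found in the table, 25 had a read, and 9 reached an RPKM of 1 in the neonatal or adult library. None of the 9 was called higher and 1, Peg12, was called lower, beside 9.01% and 9.27% of all genes at that level. The median log2 ratio of the 9 was -0.30, against -0.07 over all genes at that level.

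Copg2, a coatomer subunit transcribed towards Mest from the other side, gave 2735 reads (RPKM 7.22) in neonatal and 1327 reads (RPKM 3.61) in adult cells. Its log2 ratio of 0.98 was just short of the call, and the interval of the ratio ran from 1.88 to 2.14. The 904 exon bases that Copg2 and Mest share make 23.0% of the Mest exons, and the kit as named does not mark strand. Because the authors left out reads that did not fall on 1 gene alone, the levels of Mest and Copg2 are uncertain. What part of the Copg2 difference came from Mest reads was not tested. On the other flank, Cpa4, a carboxypeptidase gene, had 88 and 21 reads. Nrf1, further out, had a ratio of 0.781.

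Zim1, the zinc finger gene next to Peg3, was higher in the neonatal cells together with it. It had 273 reads in the neonatal and 42 in the adult library, a ratio of 6.32 (interval, 4.55 to 8.96), at RPKM values of 0.641 and 0.101. Usp29, which shares its control region with Peg3, had 2 and 7 reads, too few to compare.

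Of the neighbours of Ndn, Peg12 was called lower in the neonatal cells, as Ndn was. It had 86 reads against 210, at RPKM values of 0.456 and 1.15, and was 2.51-fold lower (interval, 1.95 to 3.27). Mkrn3, under an RPKM of 1 in both libraries and not called, had 58 reads against 122, a 2.16-fold lower value (interval, 1.57 to 3.01). Magel2 had no read in either library. Farther away, Snrpn and Ube3a had ratios of 0.835 and 0.682 and were called in neither direction.

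On chromosome 12 the maternally expressed noncoding RNAs beyond Meg3 differed less than Meg3 itself. Rian had 3337 and 4549 reads, a ratio of 0.713 (interval, 0.682 to 0.746), and Mirg a ratio of 0.885 (interval, 0.791 to 0.990). Rtl1, a paternally expressed retrotransposon-derived gene there, had a ratio of 0.714. Dio3, at the far end, had 0 reads in the neonatal and 10 in the adult library. Its counting interval started at 2.31-fold lower, and the value with the 0 taken as 3 reads was 3.43-fold.

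Igf2, the fetal growth factor that shares its enhancers with H19, had 0 reads in the neonatal and 82 in the adult library. Its counting interval started at 22.4-fold lower in the neonatal cells, and the value with the 0 taken as 3 reads was 28.1-fold. Its RPKM of 0.0901 in the adult cells was low as well. Beside Cdkn1c, Phlda2 had 1 and 2 reads, while Slc22a18 went against Cdkn1c, with 40 reads in the neonatal and 4 in the adult library. The more distant Nap1l4, Cd81 and Tssc4 had ratios of 0.813, 0.677 and 0.872. Ddc, next to Grb10, had 10 and 15 reads, and Nespas, antisense to Gnas, had 93 and 75.

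**Figure D3:**
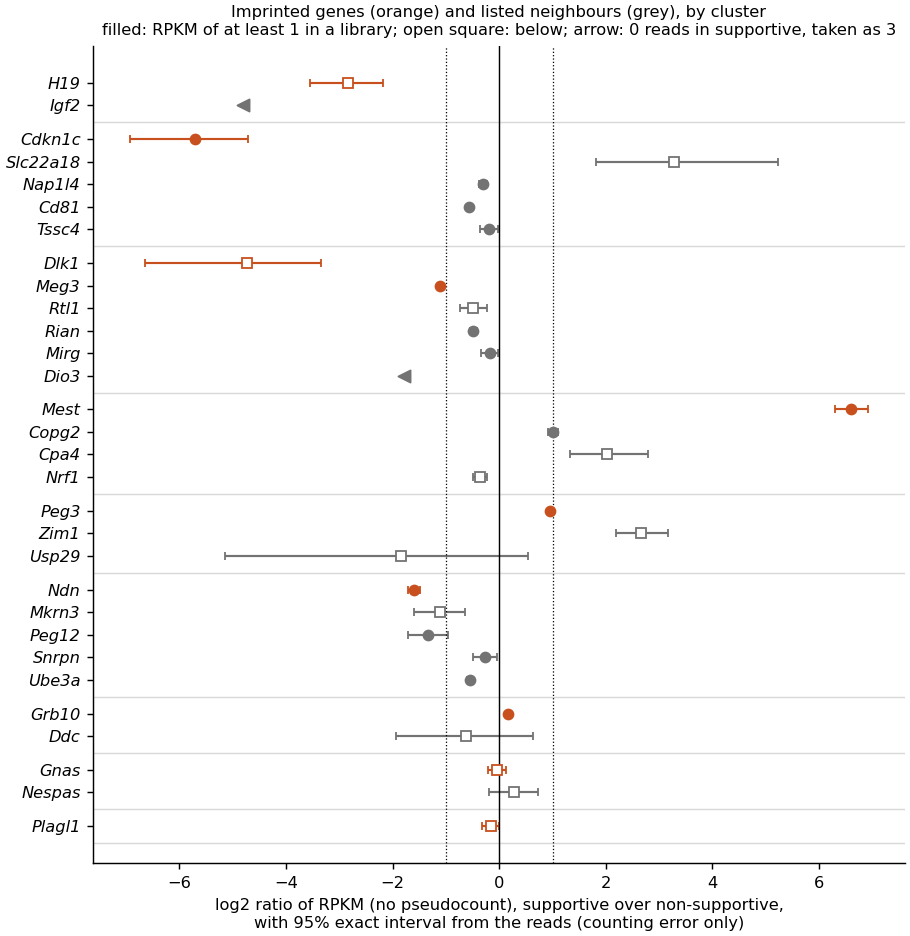
Log2 ratio of RPKM, supportive over non-supportive, for the 10 imprinted genes (orange) and listed neighbours (grey), grouped by cluster, with 95% exact intervals from the reads. The neighbours drawn had at least 9 reads over both libraries. Tspan32, with 8 neonatal and 3 adult reads, is not drawn. Filled circles reached an RPKM of 1, and open squares did not. Arrows mark genes with 0 reads in the neonatal library, drawn at the value with the 0 taken as 3 reads. Mest, Copg2 and Cpa4 lie right of 0, H19 and Igf2 left of it, and Ndn, Mkrn3 and Peg12 left of -1.

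Genes of other clusters that were listed as imprinted went both ways too, and whether each is imprinted in these cells was not tested. Of 31 listed, 30 were found and 20 reached an RPKM of at least 1, of which 4 (20%) were called higher and 5 (25%) lower, beside 9.01% and 9.27% of all genes at that level. The median log2 ratio was -0.09. The 4 higher genes were Pon3, Sgce, Dcn and Airn. Pon3, a lactonase, was at an RPKM of 33.5 in the neonatal and 5.45 in the adult library, a ratio of 6.15 (interval, 5.78 to 6.56). Sgce, a sarcoglycan in the same chromosome 6 cluster, was at 24.6 and 7.30, while Peg10, which shares its promoter region, had a ratio of 1.05. Dcn, the proteoglycan decorin, was at 124 and 46.5. Airn, the antisense RNA of the Igf2r cluster, had 344 and 120 reads, and Igf2r itself had a ratio of 1.75. Airn and Igf2r share no exon bases in the annotation.

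The 5 lower genes were Slc38a4, Htr2a, H13, Gatm and Nnat. Slc38a4, an amino acid transporter, had 24 reads in the neonatal and 513 in the adult library and was 22.0-fold lower (interval, 14.6 to 34.6). Htr2a, a serotonin receptor, was at an RPKM of 3.30 against 12.0. H13, Gatm and Nnat were 2.37-fold, 2.19-fold and 2.24-fold lower.

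Of 14 listed genes whose proteins set or keep imprints, 10 reached an RPKM of at least 1. None of the 10 was called higher or lower, beside 9.01% and 9.27% of all genes at that level. Their log2 ratios ran from -0.23 to 0.41. Dnmt1, the maintenance DNA methyltransferase, was at an RPKM of 17.7 in the neonatal and 19.9 in the adult library. Zfp57, which binds methylated imprinting control regions, was at 3.64 and 3.59, and Trim28, its corepressor, was at 4.73 in both. Of the 4 genes under that level, the de novo methyltransferase Dnmt3b had 133 reads in the neonatal and 59 in the adult library, a ratio of 2.19 with an interval that ended at 3.03 and lay above 1. Its cofactor Dnmt3l had 0 and 12 reads, Ctcfl had 1 and 3, and Dppa3 had none.

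Of 12 listed growth genes of early life that are not imprinted, 8 reached an RPKM of at least 1, of which 0 were called higher and 3 (37.5%) lower, beside 9.01% and 9.27% of all genes at that level, with a median log2 ratio of -0.44. Igf2bp1, an RNA-binding protein of fetal tissue, was at 1.33 in the neonatal and 3.79 in the adult library. Hmga2, a chromatin protein of proliferating embryonic cells, was at 12.7 and 28.6. Sox4, a transcription factor of progenitor cells, was at 1.23 and 2.98. Lin28a had no read and Lin28b had 1 and 4.

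Among 14 genes whose products work with those of the 10, 10 reached an RPKM of at least 1. Of these, 1 was called higher, Igf1, and 0 lower, beside 9.01% and 9.27% of all genes at that level. Igf1 was at 2.73 in the neonatal and 1.16 in the adult library. The receptors that Grb10 binds, Igf1r and Insr, had ratios of 0.741 and 0.669. The kinases that Cdkn1c restrains were at ratios of 1.05 for Cdk2 and 1.46 for Cdk4. Notch1, under an RPKM of 1 in both libraries, had 625 and 106 reads. All 12 proliferation genes had ratios above 1, but the counting intervals of Bub1, Ccnb2, Mcm5 and Pcna included 1. Of the 11 at an RPKM of at least 1, 0 were called, beside the same shares of all genes. Their log2 ratios ran from 0.00 to 0.74. Mki67 was at 45.5 and 36.7.

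All 8 of the listed macrophage genes found in the table were lower in the neonatal library. The 7 that reached an RPKM of 1 were called lower, beside 9.27% of all genes at that level. Ptprc, Tyrobp, Emr1 and Itgam had 0 reads in the neonatal library. The RPKM of smooth muscle genes summed to 406 in the neonatal and 661 in the adult library, of which Actg2 made 247 and 292. All 6 reached an RPKM of 1, and 3 of them, Des, Myh11 and Cnn1, were called lower, beside 9.27% of all genes. The other 3 were called in neither direction, and of these Smtn went the other way, with a ratio of 1.55. Epithelial markers summed to 0.530 in the neonatal and 3.47 in the adult library. Krt20, the 1 of them that reached an RPKM of 1, was called lower, with 11 reads against 419. It made 3.13 of the adult sum, while Cdh1 made 0.427 of the neonatal sum and went the other way, with 159 reads against 18. Endothelial markers summed to 0.0255 and 0.235 and mesothelial markers to 0.133 and 0.650, with no gene at an RPKM of 1. Krt19 made 0.607 of the mesothelial sum in the adult library, while Upk3b had 21 reads in the neonatal and 0 in the adult library. Neuron and glia markers summed to 8.68 and 3.72. S100b made 6.69 and 0.116 of these sums, while Tubb3 made 1.92 and 3.52 and went the other way. Sox10 had no read in either library. The part of other cells in the lower values of Cdkn1c, Ndn, Meg3, H19 and Dlk1, or in the higher value of Mest, was not tested.

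**Figure D4:**
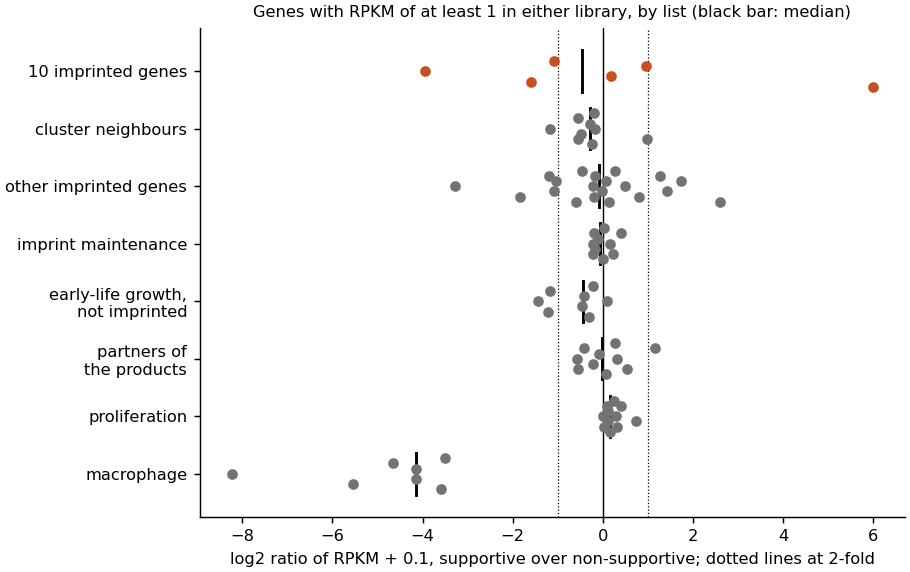
Log2 ratio of RPKM + 0.1, supportive over non-supportive, of each gene that reached an RPKM of 1 in the neonatal or adult library, by list, with 1 point per gene, a black bar at the median and dotted lines at 2-fold; vertical spread within a list has no meaning. The 6 imprinted genes span -3.96 to 5.98, the imprint maintenance and proliferation genes stay within the 2-fold lines, and all macrophage points lie below -3.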

How the data were processed

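ISEMF libraries from neonatal and adult mice, 1 each, were sequenced by the authors as single-end reads of 50 bases after TruSeq preparation of mRNA. The authors aligned the reads to mm9 with TopHat (TopHat2 2.0.4 in the submitters' processing notes), kept unique hits and counted reads per gene with HTSeq 0.5.4p3, leaving out reads that fell on more than 1 gene. The Ensembl release is not given in the sources used here. The deposited counts are whole reads without normalization. Deposited RPKM values are the same counts scaled by the authors by gene length and by library size, which back-calculated from the values is 71463423 and 69449374 reads. The deposited gene length, described as the union of exons, exceeds the exon union of GENCODE vM1 for 9 of the 10 genes, by up to 2.85 times for Dlk1, and exceeds the whole span of the gene for 3 of them. Levels of different genes are therefore approximate. Ratios without the pseudocount are not affected, while log2 ratios with the pseudocount and the minimum RPKM depend on the length used. The authors' log2 ratios and DESeq p-values, and a shorter table of Wnt pathway genes, were not used.

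Libraries were grouped by their titles. Log2 ratios used a pseudocount of 0.1 and calls a 2-fold difference at a minimum RPKM of 1. Genes at 0 reads in 1 library were set to 3 reads for a bound. Coordinates and exon overlaps came from GENCODE vM1, which holds all 37309 identifiers on the same chromosomes, and sequences from RefSeq tables on GRCm38.p6, matched by symbol or microRNA name. edgeR's quasi-likelihood test and DESeq2's test need replicates and could not be run, so edgeR's exact test was used only with assumed variation. Alternatives were other pseudocounts, minimum levels, scalings (also without mitochondrial genes) and folds, and vM1 exon lengths, the last chosen after seeing the data. Members, lists and tests were chosen with earlier results of these data known. The named genes are the 10, their nearest listed neighbours, and in other lists the genes past the 2-fold call, with further list genes named for context after their values were seen. Kcnq1ot1 was named in that rule and is not analysed here. Calls and intervals were run on simulated data with 200 changed genes. A pass criterion was set only for the run with counting error alone, which the interval assumes. That run says nothing about variation between cultures. Tests ran in edgeR 4.0.16, with size factors from DESeq2 1.42.0, in R 4.3.3. Intervals came from scipy 1.17.1 and tables from pandas 2.3.3 in Python 3.11.15.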

Additional observations from a re-analysis of the deposited data

How the results depend on the processing

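No paired analysis was possible because each population has 1 library, and no value has a replicate check. Mest was called higher and at least 1 of Cdkn1c, Ndn and Meg3 lower at every setting. Peg3 joined Mest, giving 2 members higher, with TMM factors, with the median log2 ratio set to 0 and with mitochondrial genes left out of the totals, which moved the median of all genes from -0.07 to 0.05. At 4-fold 1 member, Cdkn1c, was lower. The median log2 ratio of the members, -0.46, changed sign with a minimum RPKM of 5 (0.17), which removed Cdkn1c. It was -0.38 with a pseudocount of 1 and with the median set to 0, -0.52 with no minimum, -0.40 with TMM, -0.42 with median-of-ratios factors, -0.34 without mitochondrial genes and -0.15 with vM1 exon lengths.

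The shares of all genes called moved with the setting too. Higher and lower, they were 9.01% and 9.27% in the main setting and 5.73% and 6.16% with a pseudocount of 1. They were 8.14% and 9.21% with a minimum of 5, 4.76% and 5.05% with no minimum, and 10.6% and 7.70% without mitochondrial genes. They were 3.24% and 3.29% at 4-fold, 7.1% and 7.49% at an assumed variation of 0.2, and 2.03% and 2.96% at 0.4. Cluster neighbours called higher numbered 1, Copg2, with a pseudocount of 0.001 and under each of the 4 other scalings, 1, Zim1, with vM1 lengths, and 3 with no minimum and at an assumed variation of 0.2. Those lower numbered 0 with a pseudocount of 1, a minimum of 5 or 4-fold, and 3 at 0.2. Other imprinted genes lower numbered 2 with a pseudocount of 1, 1 with a minimum of 5, 3 without mitochondrial genes, 1 at 4-fold and 3 at 0.4, and those higher 1 at 4-fold and 0 at 0.4. Imprint maintenance genes lower numbered 1 at 0.2. Early-life genes lower numbered 1 with a minimum of 5, 0 at 4-fold, 5 at 0.2 and 0 at 0.4. Partners higher numbered 0 with a pseudocount of 1, a minimum of 5, 4-fold or 0.4, and 2 with no minimum or at 0.2. Dlk1, H19, Cdkn1c and Igf2 rest on 22 reads or fewer in the supportive library, so their folds are imprecise.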

Other observations

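The order of levels within the group depends on the gene length used. With exon unions from GENCODE vM1 in place of the deposited lengths, Mest in the supportive library was at 33.1 RPKM and Peg3 at 24.6, where the deposited values are 17.7 and 17.4. Plagl1 then passed an RPKM of 1 in both libraries, at 1.15 and 1.28, and H19 in the non-supportive library was at 0.929, just short of it. Ndn, a single exon, kept its values. Over the whole table, 725 genes (1.94%) have a deposited length above the span of the gene in vM1, and 65.7% have the same length in both sources.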
